A study of Rattus norvegicus with 2 samples.

Results

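The myelin and oligodendrocyte lineage genes described here are 9 of the 25399 genes counted in single cells from the rat optic nerve: Mbp, Cnp, Mag, Bcas1, Pllp, Tubb4a, Olig1, Olig2 and Sox10. They were chosen by name as known genes of this lineage and not by a rule on their values, though with earlier results of these data known. Each symbol was listed once. In the order given, their Ensembl identifiers in the files were ENSRNOG00000016516, ENSRNOG00000017496, ENSRNOG00000021023, ENSRNOG00000012906, ENSRNOG00000016558, ENSRNOG00000047505, ENSRNOG00000028648, ENSRNOG00000028658 and ENSRNOG00000011305. The study compared 1 library of cells from WT (Sprague Dawley) rats with 1 library from Nuc1 rats, which carry a spontaneous insertion mutation in the crystallin gene Cryba1. The labels give the optic nerve as the source and postnatal day 7 as the age of both, while the methods describe mixed primary cultures of glia from younger pups and the design text a digested nerve, and how many animals went into a library is not stated in the sources used here. The labels name no agent for either group. The libraries held 34517542 (WT) and 35794685 (Nuc1) unique molecular identifiers (UMIs, 1 for each captured transcript molecule), and 1963 WT and 1782 Nuc1 cells were kept. Only 2 cell barcodes were found in both libraries. Cryba1 itself had 0 UMIs in both libraries, so it does not check the genotype labels.

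Oligodendrocytes arise from dividing precursors and wrap axons of the optic nerve in myelin, a compacted stack of membrane. The transcription factors Olig1, Olig2 and Sox10 specify the lineage and drive its maturation, Bcas1 marks cells that begin to make myelin, and Cnp, Pllp, Tubb4a, Mag and Mbp encode the proteins of the myelinating process and of the membrane itself. Some of the genes are also known from other cells: Sox10, Mbp and Mag from Schwann cells, Sox10 from melanocytes, Tubb4a from neurons and Olig2 from some astrocytes and their progenitors.

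The cells fell into 11 clusters, found with the 9 genes left out of the clustering, and groups were named from marker lists that hold none of the 9. Cluster 8 had the highest level of 14 of the 20 lineage markers detected, and 54 of its 62 cells are called oligodendrocyte-like here. The other 8 had more UMIs of the neuron list than of the lineage lists (5 to 40 UMIs of the former, at most 4 of the latter) and a median of 2799 UMIs, against 12621 in the 54. They were set apart after these values were seen, and held 11 UMIs of the 9 genes in all, 7 of them of Tubb4a. Of other types that could carry these genes, the summed Schwann list was at 158 CPM in WT and 58.7 CPM in Nuc1 in the oligodendrocyte-like cells. CPM, the level used throughout, is the UMIs of a gene or list summed over the cells of a group and library per 1000000 UMIs of those cells. The summed melanocyte list was at 133 and 93.9 CPM, and the neuron list at 304 and 176. The summed astrocyte list was far higher, at 7439 CPM in WT and 9123 in Nuc1. It was at 41454 and 52266 in the astrocyte-like cells and at 684 and 801 in the collagen-rich cells described next. The other groups were astrocyte-like cells (106 WT, 343 Nuc1), cells with motile cilia (15 and 111), cells led by Ttr and Gldn (23 and 31), macrophage-like cells (23 and 22) and 6 collagen-rich clusters of fibroblast type (1744 and 1265).

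Oligodendrocyte-like cells were rarer in the Nuc1 library. They made up 49 of 1963 WT cells, or 2.50% (95% Clopper-Pearson interval 1.85 to 3.29), and 5 of 1782 Nuc1 cells, or 0.281% (0.0912 to 0.654). The cells of the same cluster set apart for neuronal RNA, after values were seen, were 3 of WT and 5 of Nuc1. With these cells kept, the group was 52 WT (2.65%) and 10 Nuc1 cells (0.561%). At a clustering resolution of 0.2 it was 67 (3.41%) and 26 (1.46%), and without clustering 22 (1.12%) and 2 (0.112%). The direction thus held, but the size of the difference depended on which cells were counted. All intervals given here are at 95% and cover counting error only, and no test between the genotypes was possible, each having a single library. The oligodendrocyte-like cells had a median share of mitochondrial UMIs of 12.6% in WT and 10.6% in Nuc1. These shares were above the 9.26% and 9.32% of all cells kept. With a limit of 10% in place of 20% before clustering, the group was 10 WT and 3 Nuc1 cells, 12 of them among the 54. As the libraries count the 3′ ends of transcripts, levels are compared between cells and not between genes.

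Upstream sequence of the 9 genes was searched for a pair of short motifs that lineage factors are known to recognise, since the genes were high in the same cells. These were ACAAAG (reverse complement CTTTGT), the core recognised by Sox proteins, and CAGCTG, an E-box (its own reverse complement) of the kind bound by Olig proteins. RefSeq promoters on GRCr8, cut to the 250 bases before the annotated start, were on hand for 6 of the 9 genes, and not for Bcas1, Olig1 and Sox10. Cnp (chr10:86011254-86011503, plus strand) held ACAAAG 203 bases and CAGCTG 134 bases before its start, and Mag (chr1:95291045-95291294, minus strand) held CTTTGT 152 bases before its start. Both are shown from 5′ to 3′ on the strand of the gene, with the matches in capitals.
Cnp: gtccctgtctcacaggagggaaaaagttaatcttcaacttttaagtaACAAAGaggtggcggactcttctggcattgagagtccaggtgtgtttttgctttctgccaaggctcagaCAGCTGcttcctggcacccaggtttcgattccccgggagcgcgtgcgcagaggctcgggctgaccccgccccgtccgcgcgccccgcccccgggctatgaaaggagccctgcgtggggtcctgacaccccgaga
Mag: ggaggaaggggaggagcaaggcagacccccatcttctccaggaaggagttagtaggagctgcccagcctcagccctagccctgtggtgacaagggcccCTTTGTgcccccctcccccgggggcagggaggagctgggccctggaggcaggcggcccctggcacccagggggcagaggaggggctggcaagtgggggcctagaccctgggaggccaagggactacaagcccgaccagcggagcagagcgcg
Of the others, 1 of the 2 windows of Mbp held both motifs, and no match was found in those of Pllp, Tubb4a and Olig2. Among 33469 promoter windows of this length, 16.3% held ACAAAG on either strand, 11.97% held CAGCTG and 1.84% held both. A match describes letters in the window and is not evidence of binding.

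The transcription factors were detected in nearly every oligodendrocyte-like cell. Olig1, a basic helix-loop-helix factor of the lineage, was at 1608 CPM in WT (exact Poisson interval 1520 to 1699) and 1573 in Nuc1 (1318 to 1863). Single WT cells ranged from 0 to 5225 with a median of 1586, and the 5 Nuc1 cells from 782 to 2484 with a median of 1423. The Nuc1 cells lay inside the WT range, and 53 of the 54 cells had a UMI of Olig1.

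Olig2, the related factor that specifies the lineage, was at 435 CPM in WT (390 to 484) and 305 in Nuc1 (199 to 447). Over the WT cells it ran from 106 to 1628 with a median of 411, and over the Nuc1 cells from 0 to 645 with a median of 124. The Nuc1 value leaned on 1 cell, which held 19 of the 26 UMIs. Sox10, the factor that acts on myelin genes, was at 305 (268 to 347) in WT and 270 (171 to 405) in Nuc1, with single cells between 0 and 904 (median 308) and between 104 and 475 (median 186). All 3 factors overlapped between the libraries, though for Olig2 the Nuc1 cells at 0 and 104 CPM lay below the WT range. Olig2 and Sox10 were found together in 51 of the 54 cells.

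Bcas1, the gene of cells that start to make myelin, was present in 54 of 54 cells. It was at 3694 CPM in WT (3561 to 3832) and 3757 in Nuc1 (3357 to 4192). WT cells ran from 514 to 11785 with a median of 2573, and Nuc1 cells from 1082 to 5093 with a median of 4981, well inside the WT range.

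The genes of myelin split into those found in every cell and those found in a few. Cnp, a phosphodiesterase of uncompacted myelin, had a UMI in all 54 cells and was at 2610 CPM in WT (2498 to 2726) and 2254 in Nuc1 (1947 to 2597). Pllp, the membrane protein plasmolipin, was likewise in all 54 and at 874 (809 to 942) in WT and 517 (375 to 694) in Nuc1. WT cells held 205 to 2813 CPM of Pllp (median 780) and Nuc1 cells 83.3 to 939 (median 474), so the Nuc1 cells lay in the lower part of the WT range and 1 of them below it.

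Tubb4a, a beta tubulin of oligodendrocytes and neurons, had a UMI in 22 of 49 WT cells (44.9%, 30.7 to 59.8) and 4 of 5 Nuc1 cells. Its level was 1025 CPM in WT (955 to 1099) and 247 in Nuc1 (153 to 377). Mag, the myelin-associated glycoprotein that faces the axon, was in 11 of 49 WT cells (22.4%, 11.8 to 36.6) and 1 of 5 Nuc1 cells, at 278 (243 to 318) and 329 (218 to 475). These genes were detected in a minority of WT cells but were high in some, with a highest single WT cell of 5695 for Tubb4a and 1672 for Mag.

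Mbp, the protein that compacts the membrane, was the most unevenly spread of the 9. It had a UMI in 9 of 49 WT cells (18.4%, 8.76 to 32.0) and 2 of 5 Nuc1 cells, and 1 WT cell held 1057 of the 2261 Mbp UMIs (46.7%). That cell was the deepest of the group, with 63189 UMIs against 50753 in the next, and carried 195 UMIs of the dividing-cell list, and whether it was 2 cells under 1 barcode was not tested beyond the doublet call. Summed levels were 2901 CPM in WT (2783 to 3023) and 399 in Nuc1 (276 to 558), whereas the median cell had 0 in both. Over both libraries the 4 cells with the most Mbp carried 94.3% of its UMIs, against 18.9% for Olig1, 25.9% for Bcas1 and 29.1% for Cnp. The Poisson interval on the sum of Mbp therefore says little about the spread between cells.

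**Figure D1:**
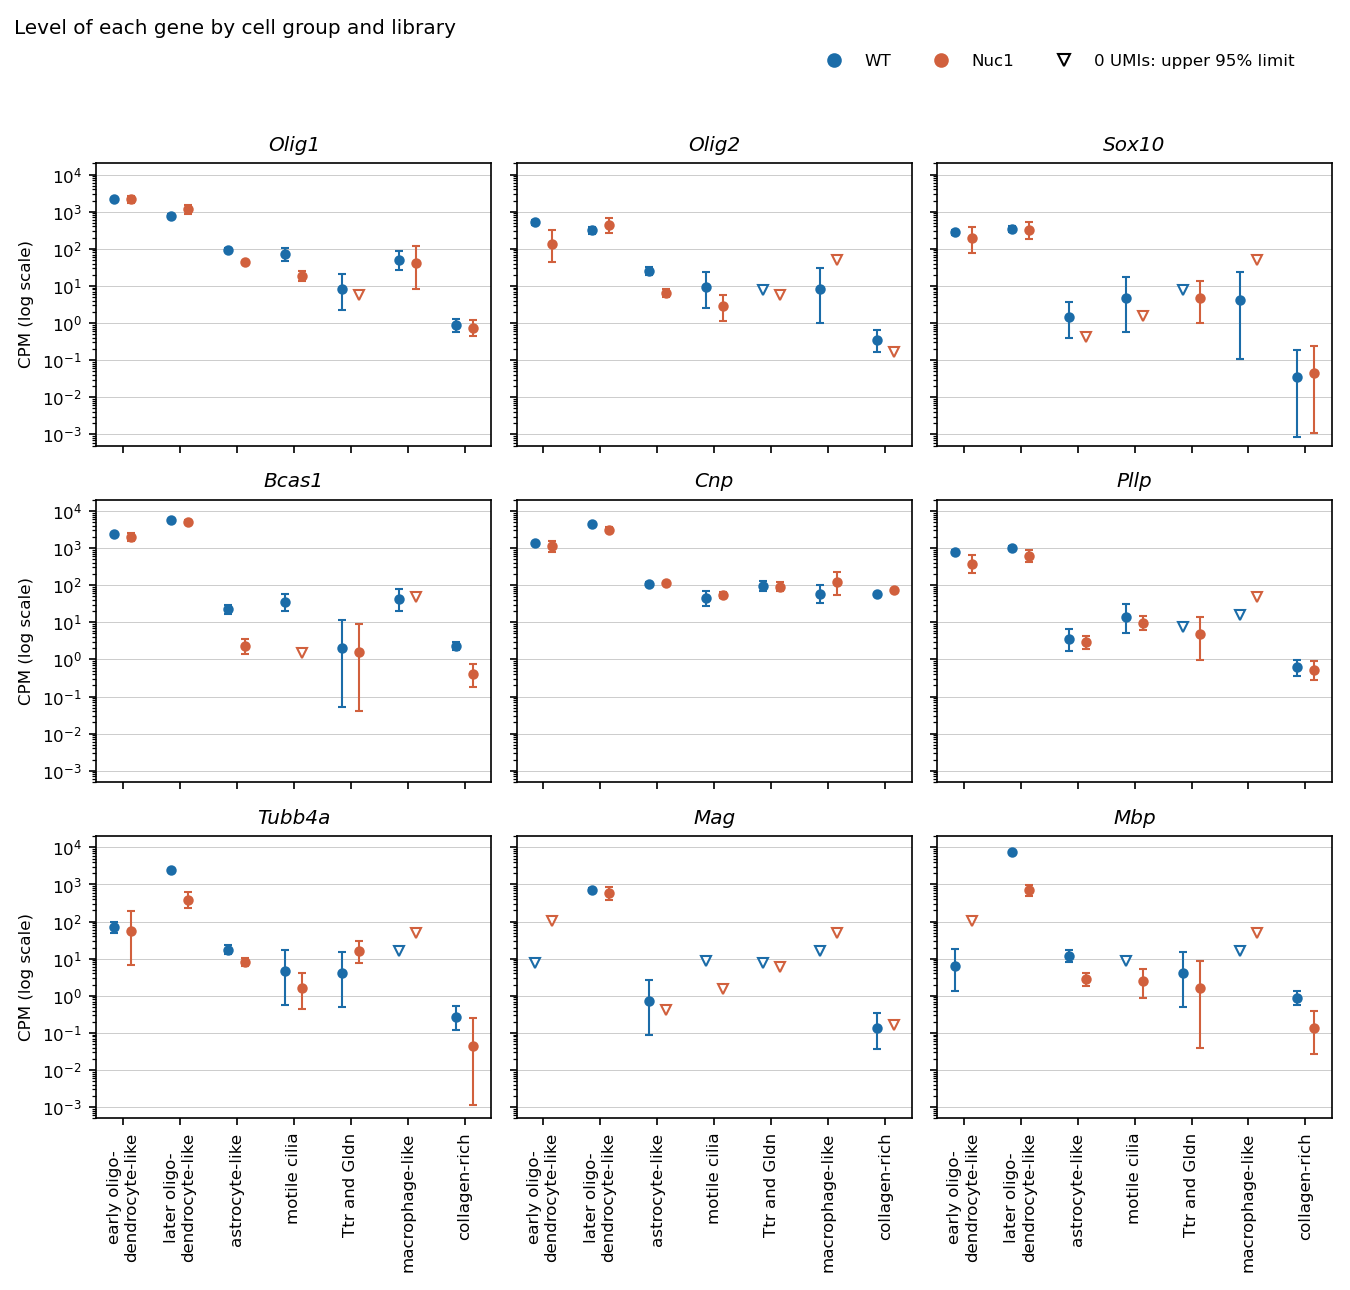
Level of each of the 9 genes (CPM, log scale) in each cell group, with WT in blue and Nuc1 in orange. Points are sums over cells with 95% exact Poisson intervals, and open triangles mark the upper limit where 0 UMIs were counted. Every gene is highest in the oligodendrocyte-like groups, Mag and Mbp in the later one alone, while Cnp stays between 45.3 and 121 CPM in the 5 other groups plotted, with the collagen-rich clusters pooled and the cells with neuronal RNA left out.

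Set against all other cells of the same library, each gene was far higher in the oligodendrocyte-like cells. A gene was counted as higher or lower where it differed by at least 2-fold and had at least 100 UMIs in the groups compared. By this rule all 9 were higher in the WT library, where 15.7% of 10006 genes were higher and 21.3% lower. In the Nuc1 library 5 of the 5 genes with enough UMIs were higher, where 22.2% of 10302 genes were higher and 9.68% lower. The genes are textbook markers of this lineage, so this describes the cells and is no finding about the genes. The log2 ratios in WT were 5.38 for Cnp, 7.32 for Olig1, 7.39 for Olig2, 9.07 for Tubb4a, 9.63 for Bcas1, 9.73 for Pllp, 10.30 for Sox10, 10.58 for Mag and 10.62 for Mbp. With cells kept from 200 genes up, the ratio of Mbp was 9.66 (9.39 to 9.93), so the order of the highest genes does not hold. The 3 lowest, Cnp, Olig1 and Olig2, had intervals (5.29 to 5.47, 7.14 to 7.50 and 7.04 to 7.75) that lay below those of the other 6, and Olig1 and Olig2 overlapped each other.

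Within the oligodendrocyte-like cells the genes followed 3 patterns along maturation. Each cell was placed by its share of later-stage UMIs. These are the UMIs of a list of 15 genes from the myelin and myelin lipid genes (14 counted). They were divided by themselves plus the UMIs of a list of 11 precursor genes such as Pdgfra and Cspg4 (10 counted). Neither list holds any of the 9. The genes counted unevenly. In WT oligodendrocyte-like cells Sirt2 gave 1521 later-stage UMIs, and Ugt8, the next, 247. Ptprz1 and Vcan gave 653 and 391 precursor UMIs, against 246 for Pdgfra and 58 for Cspg4. The share therefore rests largely on Sirt2, Ptprz1 and Vcan, and a share without these genes was not tested. Cells with a share up to 0.5 are called early (34 WT, 3 Nuc1) and the rest later (15 and 2). This is a range cut from a score and not a pair of cell types, 13 of the 54 cells lay within 0.15 of the limit, and the later-stage list was assembled after values were seen. Early and later WT cells were of similar depth (median 11691 and 12643 UMIs), and UMIs of the dividing-cell list reached 100 CPM in 23 of 34 early and 4 of 15 later WT cells.

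Mbp and Mag were nearly limited to the later cells, and Tubb4a was far higher there. In WT, Mbp had 3 UMIs in the 34 early cells (6.35 CPM) and 2258 in the 15 later cells (7350), a log2 ratio of 10.18 (8.63 to 12.45). Mag had 0 UMIs in the early cells, which allows up to 6.35 CPM, and 217 in the later ones (706), at least 111-fold higher. Tubb4a was at 69.9 CPM in early and 2493 in later cells, a log2 ratio of 5.16 (4.65 to 5.71).

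Cnp and Bcas1 were present in every early cell and rose further. Cnp was at 1330 CPM in early and 4577 in later WT cells (log2 ratio 1.78, 1.65 to 1.92), and Bcas1 at 2455 and 5599 (1.19, 1.08 to 1.30). Pllp, at 782 and 1016, differed less (0.38, 0.16 to 0.60), as did Sox10, at 278 and 348 (0.33, -0.05 to 0.71). The early cells thus already held Pllp and Sox10 at levels within 2-fold of the later ones.

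Olig1 went the other way. It was at 2167 CPM in early and 749 in later WT cells, a log2 ratio of -1.53 (-1.75 to -1.33), while Olig2 was at 513 and 316 (-0.70, -1.05 to -0.35). By the 2-fold rule 5 of the 9 genes were higher in later cells, where 8.51% of 1363 genes were, and Olig1 alone was lower, where 8.44% were. In the Nuc1 library, with 3 early and 2 later cells, Cnp and Bcas1 had log2 ratios of 1.47 (lower limit 0.96) and 1.35 (0.96 to 1.74), and Olig1 of -0.89 (-1.41 to -0.38). Olig2 went the other way than in WT, at 1.66 (0.21 to 3.42), from 5 UMIs in early and 21 in later Nuc1 cells.

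Finer ranges of the share, whose limits were set after the values were seen, showed that Bcas1 did not simply increase. Over the 54 cells it was at 1819 CPM (1654 to 1996) in the 17 cells with a share up to 0.25, 2979 (2774 to 3194) in the next 20 cells up to 0.5, 6853 (6495 to 7224) in the 10 cells up to 0.85 and 3812 (3511 to 4132) in the 7 cells above. Mbp took the opposite course over the last step, from 1125 (984 to 1282) in the 10 cells to 13326 (12758 to 13914) in the 7. Mag likewise went from 189 (134 to 260) to 1335 (1159 to 1530), and Olig1 fell through all 4 ranges, from 2372 through 1973 and 1051 to 484. The ranges overlapped cell by cell for Bcas1, which ran from 2443 to 11785 in the 10 cells and from 1863 to 8859 in the 7. They also overlapped for Mbp, which ran from 0 to 7236 in the 10 cells and from 0 to 26990 in the 7. Its median cell was at 0 and 5855 CPM. In the 10 cells 1 cell held 207 of the 226 Mbp UMIs, and in the 7 the deepest cell held 1057 of 2066.

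Single cells showed the order in which the genes were first seen. No Mag UMI was found in a cell with a later-stage share under 0.606, and no Mbp UMI under 0.480, while the other 7 genes except Tubb4a were present in the cell of lowest share, 0.10, and Tubb4a from 0.105. Mag was never seen without Tubb4a (12 of 12 cells), nor was Mbp (11 of 11 cells). Mag and Mbp shared 8 cells, with 4 cells holding Mag without Mbp and 3 Mbp without Mag. A high later-stage share did not ensure Mbp, as 7 of the 15 later WT cells had none, among them a cell of 12599 UMIs with 131 later-stage, 71 Tubb4a and 7 Mag UMIs. The later WT cell with the most Mbp per UMI had 565 of them among 20934 UMIs.

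**Figure D2:**
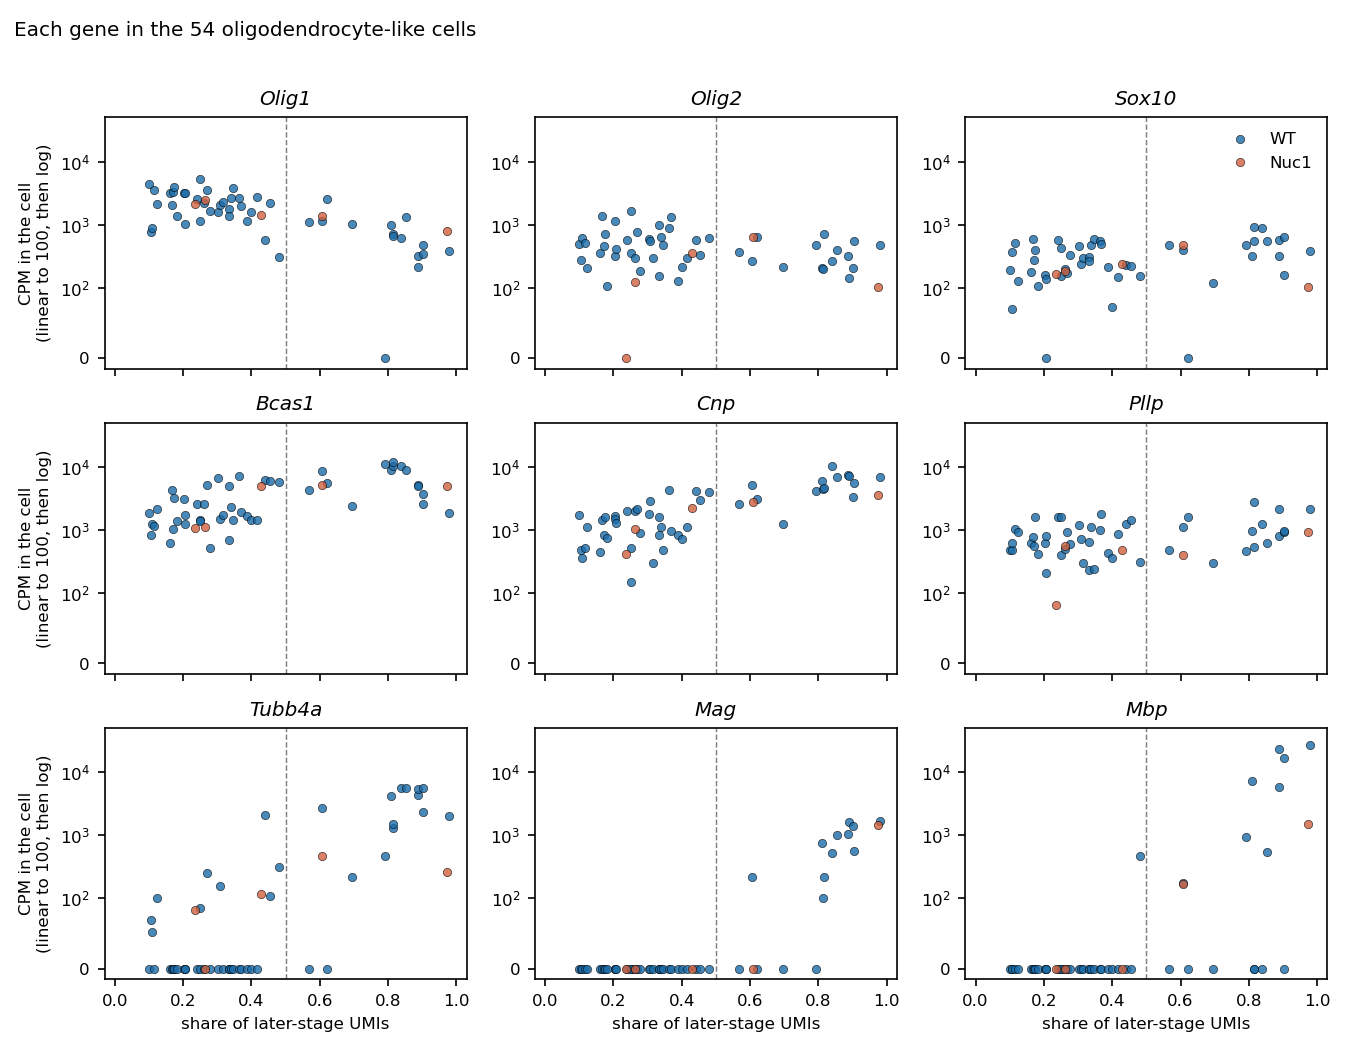
Level of each gene in each of the 54 oligodendrocyte-like cells (CPM of the cell, linear to 100 and log above) against the cell's share of later-stage UMIs, with the limit of 0.5 dashed, WT in blue and Nuc1 in orange. Mag and Mbp leave 0 only on the right, Tubb4a climbs across the limit, Bcas1 peaks before the right edge, and Olig1 declines from left to right.

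Outside the lineage, Cnp was found in every cell group, the 3 WT cells with neuronal RNA (6960 UMIs) excepted. It was at 108 CPM (96.0 to 121) in WT and 117 (110 to 124) in Nuc1 astrocyte-like cells, and at 58.1 (55.4 to 61.0) and 72.1 (68.7 to 75.7) in the collagen-rich cells. The 6 collagen-rich clusters were close to one another, from 44.2 to 62.8 CPM in WT and from 43.8 to 84.1 in Nuc1, with cluster 5, led by Ube2c and Top2a, lowest in both. Cluster 7, also led by genes of cell division such as Kif20a and Cenpa, was at 62.8 and 67.5 CPM. Outside the oligodendrocyte-like group 61.5% of WT and 70.6% of Nuc1 cells had a Cnp UMI. No single cell held more than 25 of them, so these levels do not come from a few cells.

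Olig1 was the gene that stood out in astrocyte-like cells. There it was at 94.2 CPM (83.2 to 106) in WT and 43.5 (39.3 to 48.1) in Nuc1, against 0.857 (0.555 to 1.27) and 0.749 (0.436 to 1.20) in the collagen-rich cells. A UMI was seen in 64 of 106 WT astrocyte-like cells (60.4%) and 142 of 343 Nuc1 cells (41.4%), at median depths of 25874 and 23902 UMIs, and in 0.803% and 0.395% of the collagen-rich cells, at 13729 and 15166. Thinned to 5000 UMIs per cell, which leaves out 1 WT and 5 Nuc1 astrocyte-like cells, the shares were 29.5% (21.0 to 39.2) and 13.3% (9.88 to 17.4) in astrocyte-like and 0.231% and 0.159% in collagen-rich cells. The most in 1 astrocyte-like cell was 29 UMIs in WT and 23 in Nuc1.

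Olig2 was lower and followed Olig1. In astrocyte-like cells it was at 25.2 CPM (19.6 to 31.8) in WT and 6.55 (4.96 to 8.48) in Nuc1, and in the collagen-rich cells at 0.343 in WT and 0 of 22707707 UMIs in Nuc1, which allows up to 0.132 CPM. Tubb4a was at 17.6 (13.0 to 23.3) and 8.27 (6.47 to 10.4) in astrocyte-like cells and at 0.274 and 0.0440 in collagen-rich cells. Sox10, by contrast, had 4 UMIs in WT and 0 in Nuc1 astrocyte-like cells, and Mag 2 and 0. Olig1, Olig2 and Tubb4a were thus seen in astrocyte-like cells in which Sox10 and Mag were close to or at 0.

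The genes also stood in other proportions to one another than in the oligodendrocyte-like cells, with Bcas1 taken as the reference. Of the UMIs of Olig1 and Bcas1 together, Olig1 made up 30.3% (28.9 to 31.8) in WT oligodendrocyte-like cells and 80.9% (76.2 to 85.0) in WT astrocyte-like cells. In the Nuc1 library the values were 29.5% (25.4 to 33.9) and 95.0% (92.4 to 96.9). Olig2 gave 10.5% (9.49 to 11.6) and 53.0% (44.2 to 61.8) in WT, Tubb4a 21.7% (20.4 to 23.1) and 44.1% (34.7 to 53.9), and Cnp 41.4% (40.0 to 42.8) and 82.9% (78.6 to 86.6). The proportion of each of these 4 genes was higher in the astrocyte-like cells. In the collagen-rich cells Olig1 made up 27.5% (18.6 to 37.8) in WT, where 1 cell held 33 of the 66 Bcas1 UMIs and 7 of the 25 of Olig1, and 65.4% (44.3 to 82.8) in Nuc1, from 26 UMIs. What part RNA set free from other cells had in these values was not tested.

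For Mbp, Mag, Pllp and Sox10 the proportions in WT astrocyte-like cells could not be told from those in oligodendrocyte-like cells. Mbp made up 34.7% (25.3 to 45.2) of its pair with Bcas1, against 44.0% in oligodendrocyte-like cells, Pllp 13.9% (6.87 to 24.1) against 19.1%, Mag 3.13% (0.381 to 10.8) against 7.01% and Sox10 6.06% (1.68 to 14.8) against 7.64%. These UMIs were few and uneven: 1 WT astrocyte-like cell held 3 of the 4 Sox10 UMIs, 6 of the 10 of Pllp and 22 of the 62 of Bcas1. In Nuc1 astrocyte-like cells Pllp made up 56.5% (41.1 to 71.1) of its pair against 12.1% (8.92 to 15.9), from 26 UMIs of which 1 cell held 9, and Mbp 55.6% (40.0 to 70.4) against 9.60% (6.74 to 13.2), from 25 UMIs.

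Single cells with several of the genes were also found outside the group. The cell with the most was a WT astrocyte-like cell of 28632 UMIs with 29 UMIs of Olig1, 22 of Bcas1, 11 of Cnp and 3 of Sox10. It held 22 of the 62 Bcas1 UMIs of its group. A cell of collagen-rich cluster 1 in the WT library held 33 of Bcas1, 25 of Cnp and 10 of Pllp, and a WT cell with motile cilia held 25 of Olig1 and 15 of Bcas1, all the Bcas1 UMIs of that group. Whether these were 2 cells under 1 barcode was not tested beyond the removal of 5 WT and 11 Nuc1 cells called doublets.

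Cells with motile cilia carried Cnp, Pllp and Olig1. In the Nuc1 library, with 111 such cells, Cnp was at 54.8 CPM (46.0 to 64.9), Olig1 at 18.7 (13.7 to 24.9), with 15 of its 46 UMIs in 1 cell, and Pllp at 9.75 (6.24 to 14.5), while Bcas1, Mag and Sox10 had 0 UMIs, which allows up to 1.22 CPM. Pllp had a UMI in 17 of these 111 cells (15.3%), with at most 3 in a cell, against 0.632% of the Nuc1 collagen-rich cells. In the 23 and 31 cells led by Ttr and Gldn, Cnp was at 95.3 (WT) and 92.1 (Nuc1) CPM, and each other gene had at most 10 UMIs. Macrophage-like cells held at most 14 UMIs of any of the 9 genes, at median depths of 8493 (WT) and 1808 (Nuc1) UMIs, so low levels were not detectable there.

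Set directly against the collagen-rich cells, the astrocyte-like cells had log2 ratios of 6.78 (6.19 to 7.43) in WT and 5.86 (5.16 to 6.66) in Nuc1 for Olig1, and of 0.89 (0.71 to 1.07) and 0.70 (0.58 to 0.81) for Cnp. Of the genes with at least 100 UMIs in this comparison, 2 of 3 were at least 2-fold higher in WT (Olig1 and Bcas1) and none lower, where 11.5% of 9718 genes were higher and 18.7% lower.

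**Figure D3:**
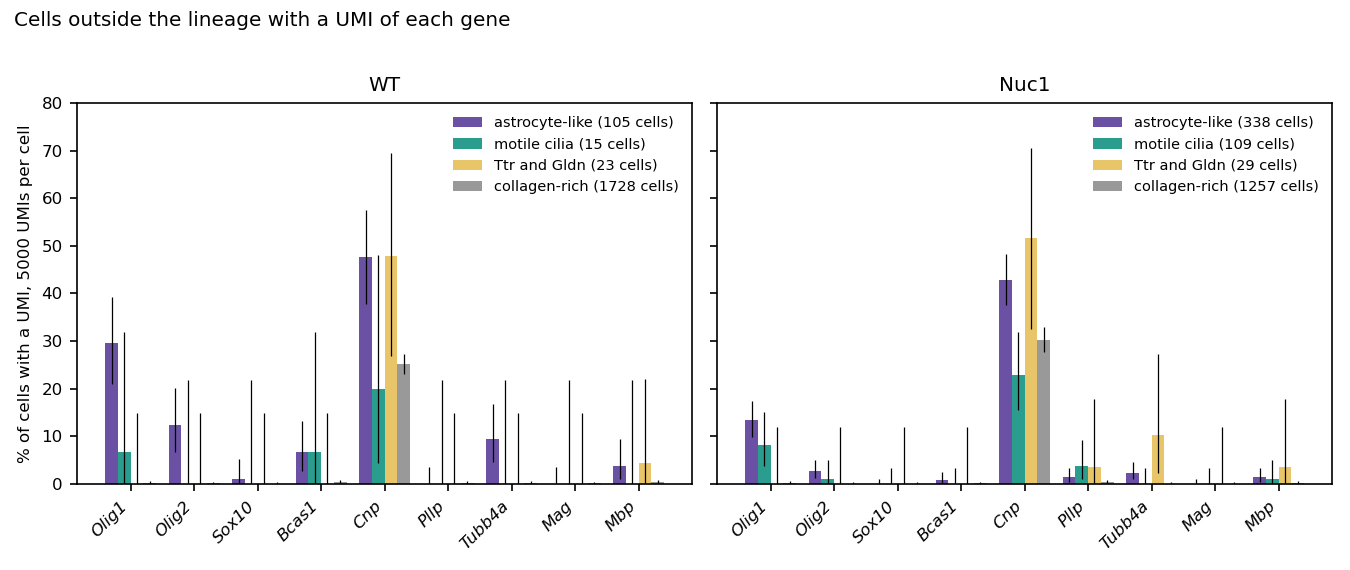
Percentage of cells with a UMI of each gene in 4 cell groups outside the lineage, after thinning each cell to 5000 UMIs, for WT (left) and Nuc1 (right), with 95% exact binomial intervals. Cnp is found in all 4 groups, and Olig1 is highest in astrocyte-like cells, at 29.5% in WT and 13.3% in Nuc1, with 8.26% of the Nuc1 cells with motile cilia next.

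Between the libraries, 2 of the 9 genes were at least 2-fold lower in Nuc1 than in WT oligodendrocyte-like cells and none was at least 2-fold higher, where 6.48% and 1.96% of 1528 genes were. The median log2 ratio of Nuc1 over WT was -0.21 over the 9 genes and 0.01 over all genes tested. With 5 Nuc1 cells, these values describe the cells sampled and have no replicate check.

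Mbp had the lowest ratio. Its summed level of 399 CPM in Nuc1 against 2901 in WT gave a log2 ratio of -2.86 (-3.40 to -2.37). The 2 Nuc1 cells with Mbp held 29 and 5 UMIs (1513 and 170 CPM), and the 9 WT cells with Mbp held 3, 4, 7, 10, 72, 207, 336, 565 and 1057. Both Nuc1 values fell inside the WT range, and the later WT cells had a median of 176 CPM, between the 2 Nuc1 cells, so that the ratio of sums rests on the few WT cells that were rich in Mbp.

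Tubb4a was the other gene, with a log2 ratio of -2.06 (-2.76 to -1.43). Among later cells alone it was at 391 CPM in Nuc1, where the 2 cells had 475 and 261, and at 2493 in WT, where the 15 cells ran from 0 to 5695 with a median of 2374. The log2 ratio was -2.67 (-3.41 to -2.02) there, and -3.39 (-3.93 to -2.91) for Mbp. Again the Nuc1 cells were inside the WT range, in its lower part.

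The remaining 7 genes were within 2-fold over the whole group. Pllp had a log2 ratio of -0.76 (-1.23 to -0.32), Olig2 of -0.51 (-1.15 to 0.07), Cnp of -0.21 (-0.43 to 0.00), Sox10 of -0.18 (-0.86 to 0.44), Olig1 of -0.03 (-0.30 to 0.23), Bcas1 of 0.02 (-0.15 to 0.19) and Mag of 0.24 (-0.38 to 0.81). Only the interval of Pllp among these 7 lay wholly below 0. Within the early cells, of which 3 were Nuc1, Olig2 was at -1.91 (-3.54 to -0.66) from 5 Nuc1 UMIs and Pllp at -1.03 (-1.91 to -0.26), and within the later cells Olig1 was higher in Nuc1 at 0.62 (0.17 to 1.05). The count of genes at least 2-fold lower was 2 or 3 in 10 of 14 alternatives. In the other 4 it was larger: with a limit of 10% mitochondrial UMIs, or with clusters drawn at a resolution of 0.2 or 1.0, 8 of the 9 genes were at least 2-fold lower in Nuc1, and without the cell richest in each gene 5 were. With the limit of 10% the Nuc1 group was 3 cells, and without the richest cell it lost 1 of its 5. At both resolutions the group kept all 54 cells and took in others. It held 67 WT and 26 Nuc1 cells at 0.2, and 49 WT and 10 Nuc1 cells at 1.0. The sums of these 2 settings thus include cells not called oligodendrocyte-like here. What part the added cells had in the lower Nuc1 values was not tested.

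In astrocyte-like cells Olig1 and Olig2 were lower in Nuc1, with log2 ratios of -1.11 (-1.35 to -0.88) and -1.94 (-2.47 to -1.42), and Tubb4a with -1.09 (-1.64 to -0.54). Cnp differed little (0.11, -0.07 to 0.31). Of the 4 genes with at least 100 UMIs there, Olig1, Olig2 and Tubb4a were at least 2-fold lower, where 3.87% of 7528 genes were, and none was at least 2-fold higher, where 1.82% were. The oligodendrocyte lineage marker list as a whole was at 117 CPM in WT and 118 in Nuc1 astrocyte-like cells. The dividing-cell list was at 225 and 40.2, a difference between the libraries that moved with these genes and whose part in the result was not tested. Bcas1 (-3.28, -4.08 to -2.53) and Mbp (-2.05, -2.86 to -1.25) were also lower in Nuc1 astrocyte-like cells, at levels of at most 22.3 CPM, of which 1 cell held 22 of 62 Bcas1 UMIs in WT.

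Over all cells outside the oligodendrocyte-like group, 6 genes had at least 100 UMIs in the 2 libraries together, and 1 of them, Bcas1 (-2.38, -2.98 to -1.81), was at least 2-fold lower in Nuc1, where 4.29% of 11244 genes were. None was at least 2-fold higher, where 8.85% were. Of the 154 WT UMIs of Bcas1 in these cells, single cells held 33, 22 and 15, so its interval understates the spread between cells. Olig1, lower within astrocyte-like cells, was here at 0.35 (0.15 to 0.56), as astrocyte-like cells made up 19.2% of the Nuc1 and 5.40% of the WT library. Cnp was at 0.40 (0.32 to 0.48), and in 5 of the 6 collagen-rich clusters its log2 ratio was between 0.10 and 0.47, with -0.01 (-0.38 to 0.35) in cluster 5.

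**Figure D4:**
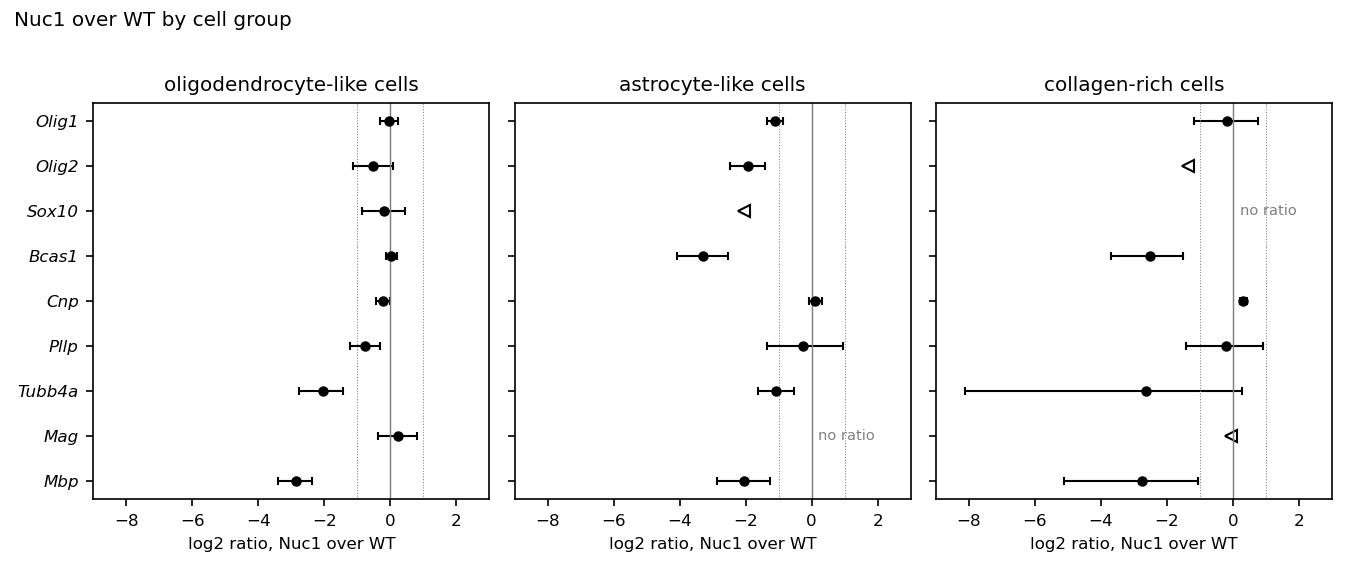
Log2 ratio of Nuc1 over WT for each gene in oligodendrocyte-like (left), astrocyte-like (middle) and collagen-rich cells (right), with 95% exact conditional intervals. Dotted lines mark 2-fold, open triangles a bound against 0 UMIs in Nuc1, and "no ratio" too few UMIs. On the left Mbp and Tubb4a lie beyond the dotted line, and in the middle panel Olig1 and Olig2 lie to the left of 0 while Cnp does not.

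Other genes of the lineage gave the setting for these values. Among 5 of 7 beta tubulin genes with at least 100 UMIs in WT oligodendrocyte-like cells, Tubb4a alone was at least 2-fold higher in later than in early cells, and the median log2 ratio was -0.24 against -0.07 over all genes. Tubb2b, a tubulin of immature neural cells, was at 2082 and 1761 CPM, and Tubb5 at 2605 and 1680. Tubb3, below the minimum with 77 UMIs, was also higher in later cells, at 44.5 and 182 CPM (2.03, 1.29 to 2.83). The rise was therefore not particular to Tubb4a. Of the lineage transcription factors other than the members, 3 of 11 had enough UMIs in this comparison, with Tcf7l2, a factor of cells leaving the precursor stage, at 1.98 (1.40 to 2.59), Sox8 at 0.50 (0.09 to 0.92) and Id2, an inhibitor of differentiation, at -1.97 (-2.83 to -1.19).

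The lists of precursor genes and of myelin and myelin lipid genes served to place the cells, so their own change from early to later cells follows from the score. Of precursor genes with at least 100 UMIs, 2 of 4 were at least 2-fold lower in later cells and 1 higher, and of myelin and myelin lipid genes 6 of 9 were higher. Against all other WT cells, 7 of 7 precursor genes, 3 of 6 transcription factors, 8 of 12 myelin genes and 5 of 7 beta tubulins were at least 2-fold higher in the oligodendrocyte-like cells, with median log2 ratios of 2.89, 2.56, 2.61 and 1.52 against 0.01 over all genes.

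Between the libraries, 3 of 9 myelin and myelin lipid genes were at least 2-fold lower in Nuc1 oligodendrocyte-like cells and 1 higher (median log2 ratio -0.66). Ugt8, which makes the main glycolipid of myelin, was at 317 CPM in WT and 93.9 in Nuc1, and Lpar1, a lysophosphatidic acid receptor, at 162 and 70.4. Cldn11, the tight junction protein of myelin, had 383 UMIs in WT and 0 in Nuc1, which allows up to 35.2 CPM, but it was also at 388 CPM in the other WT cells. Cd81, a tetraspanin of many cell types, was the higher one, at 816 and 1656. Of 4 precursor genes 1 was lower, the proteoglycan gene Vcan (502 and 93.9), and the list's median was -0.44. All 4 transcription factors with enough UMIs were within 2-fold (median -0.0024), and of 5 beta tubulins Tubb4a alone was lower (median -0.10). Id4, a listed transcription factor below the UMI minimum, was higher in Nuc1. It was at 37.2 CPM in WT and 223 in Nuc1 (log2 ratio 2.58, 1.67 to 3.47), from 29 and 19 UMIs.

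Genes with the most similar pattern to each member were found over 20 profiles of cell groups in the 2 libraries, by Pearson's r of log2(CPM + 1) among 11282 genes. A profile needed at least 20 cells, so the 5 Nuc1 oligodendrocyte-like cells gave none. The 49 WT cells gave the only oligodendrocyte-like profile, and a gene high in it and low elsewhere has a high r with any member. The r values are therefore a description. Omg, a glycoprotein of oligodendrocytes and neurons, was among the 3 nearest genes of Mbp (0.968), Cnp (0.936), Mag (0.972) and Pllp (0.939). Pnlip, a leading gene of cluster 8 that is in none of the lists used here, was the nearest gene of Mag (0.998) and Cnp (0.941). It was also among the 3 nearest of Mbp (0.937). Ugt8 was among those of Mag (0.992) and Cnp (0.941), and Plxnb3, a semaphorin receptor, among those of Mbp (0.957), Pllp (0.905) and Olig2 (0.936). Sox10 was nearest to Rlbp1 (0.980) and Gal3st1 (0.926), an enzyme of sulfatide synthesis, Bcas1 to B3gat2 (0.956), Olig2 to Padi2 (0.950), and Tubb4a to Plpp4 (0.958). Olig1 had the lowest values of the 9, with Vxn at 0.900, and among the members its r with the others ran from 0.627 with Pllp to 0.873 with Olig2.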

How the data were processed

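The authors prepared libraries with a droplet-based 3′ kit, demultiplexed the reads with Cell Ranger 3.1.0, aligned them with STAR 2.7 and analysed them with Seurat 3.1.0 and 3.1.1. They deposited, for each barcode, counts of UMIs by gene that were not normalized, and all values here start from these counts. The genome build is not given in the sources used here. Barcodes were kept from 500 detected genes up and with no more than 20% of UMIs from 13 mitochondrial genes, and doublets called by Scrublet (scanpy 1.11.5, expected rate 2%) were left out. As it called 0.254% and 0.613% of the cells, doublets can remain. The libraries were integrated by anchors and clustered in Seurat 5.3.0 (R 4.3.3) with 1991 variable genes, 30 principal components, a resolution of 0.5 and seed 1. A cluster's leading genes were ranked by fold after 20 CPM were added, and clusters with Col1a1 over 2000 CPM were called collagen-rich.

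UMIs were summed per library and group. Intervals are exact Poisson (sums), exact binomial (shares) and exact conditional (ratios). A ratio against 0 was set against a floor of 3 counts per group and library. No p-value was computed. The 9 genes, the marker lists and the lists of precursor genes, lineage transcription factors, myelin and myelin lipid genes and beta tubulins were chosen with earlier results of these data known. Named genes are the members, genes of these lists and, for each member, the 3 genes of highest correlation over groups of at least 20 cells. Steps were tested on simulated sums of 1528 genes for Nuc1 over WT oligodendrocyte-like cells, drawn as Poisson counts. In these sums 96.9% of intervals held the true ratio. A 4-fold decrease was called in 96.6% of genes, a 2-fold decrease in 47.7%, and 2.18% of unchanged genes were called. The intervals assume Poisson counts too, so this checks the calculation only. It cannot give the error rates for real counts that are uneven between cells. Alternatives were the gene minimum, the mitochondrial limit, doublets, integration, resolution, members used for clustering, no clustering, thinning, means over cells, the cell richest in a gene, TMM scaling (edgeR 4.0.16) and the UMI minimum. Keeping cells with neuronal RNA was added after seeing the data.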

Additional observations from a re-analysis of the deposited data

How the results depend on the processing

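No paired analysis was possible because there is a single library of each genotype, and for the same reason no replicate could be left out. Oligodendrocyte-like cells were rarer in Nuc1 under each of the 9 alternatives tried, and Mbp, Tubb4a, Cnp and Pllp kept ratios below 0 in these cells under all 14, Mbp between -4.47 and -2.32 and Tubb4a between -5.87 and -1.92. The sign of Mag (below 0 in 6 of 14) and Bcas1 (9 of 14) did not hold. The cause of the changes that follow was not tested.

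In the order used here, the values were a share of oligodendrocyte-like cells 2.22 percentage points lower in Nuc1 (-2.22), a WT level of the median gene of 1025 CPM, a log2 ratio over other cells of 9.63, a median share of WT cells with a UMI of 98.0%, and median log2 ratios of Nuc1 over WT of -0.21 in oligodendrocyte-like cells (2 genes lower, 0 higher) and -0.49 in all others (3 lower, 0 higher, with no minimum of UMIs). A limit of 10% mitochondrial UMIs gave -0.53 points, 1377 CPM, 10.11, 100% and -1.95 with 8 lower, and outside the group 0.49 with 3 higher and Olig2 at 0.30. A minimum of 200 genes gave a ratio over other cells of 9.32, with Mbp at 9.66 in place of 10.62 there and at -1.83 in place of -0.87 for Nuc1 over WT outside the group, and keeping doublets a level of 936. Resolution 0.2 gave a level of 837, a share of 73.1% and -1.26 with 8 lower, and resolution 1.0 gave -1.23 with 8 lower. Without clustering (cells with UMIs of at least 4 of 8 lineage markers) the values were -1.01 points, 6.69 and 100%, and outside the group -1.21 with 6 lower, Pllp at -1.99 and Olig1 at -1.21. Keeping cells with neuronal RNA gave -0.51, and TMM scaling -0.47. Means over cells gave 912, 9.04 and -0.52, and outside 0.36 with 1 lower and 2 higher. Thinning to 5000 UMIs gave 894, 83.7% and 1 higher, and outside 0.0033 with 1 lower and 1 higher, and thinning to 2000 a share of 61.2%. Without the cell richest in each gene the values were 906, 9.90 and -1.14 with 5 lower, and outside 1 higher. With a minimum of 20 UMIs 12.5% of genes were at least 2-fold lower in Nuc1 oligodendrocyte-like cells, against 6.48%. Depth limits the Nuc1 oligodendrocyte-like cells, whose 85169 UMIs leave a floor of 35.2 CPM.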
